A study of Oryza sativa with 9 samples.

Results

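Between leaves of an OsCOMT mutant of rice (Oryza sativa), an OsCOMT overexpression line (OE) and the wild type (WT), 26 genes of the 37858 in the table were nearly silent in the mutant and expressed in both other genotypes. A gene was taken when it had at least 5 FPKM in each of the 6 OE and WT libraries and under 1 FPKM in each of the 3 mutant libraries. FPKM are reads scaled to gene length and to the total reads of the library, so levels of different genes can be set side by side. A stretch of chromosome 11 and 2 single genes were left out of the search, and this removed none that met the thresholds. Outside the left-out genes, 13401 reached 5 FPKM in each OE and WT library, and the 26 were 0.194% of them. The expression values themselves chose these genes, so their difference between the mutant and the other genotypes is given here as a description, with no test.

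The leaves were sampled 85 days after sowing, and each genotype had 3 replicate libraries. The mutant carried a mutation of OsCOMT, of a kind the labels do not give, and OE overexpressed the same gene, with the promoter not given. Caffeic acid O-methyltransferases add a methyl group to precursors of lignin, the polymer of woody cell walls, and the series title places OsCOMT in the making of melatonin and ties it to leaf senescence, the vasculature and yield. The labels do not say whether the replicates came from separate plants or how many lines stand behind each genotype, so p-values measure only the spread between these libraries, which may be technical. The mutant titles carry a number directly on the genotype name, and whether it marks a line is not given. The cultivar is also not given in the sources used here. All 9 libraries are labelled as 85 days, but the titles of the OE and WT libraries end in the number 100 before the replicate and those of the mutant libraries do not. What that number marks is not given in the sources used here; if it is an age or a batch, age or batch and genotype cannot be told apart.

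Rice genes are identified here by their RAP identifiers, in which the digits after Os give the chromosome and the digits after g run in order along it. Genes that are next to each other in this order are neighbours on the chromosome. A gene counted here as nearly silent is one to which hardly any reads were assigned in the mutant; why was not tested. In bulk leaf RNA, fewer cells of a type and less RNA per cell cannot be told apart. The files pair no names with the identifiers, and none of the 26 was found in the RefSeq gene table used for names, so they are described by identifier, position and level, and no product is given.

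The libraries held 10674819 to 11809530 reads, as recovered from the FPKM steps. Os08g0157500, the identifier taken for OsCOMT from general knowledge, was at 226 to 458 FPKM in the mutant libraries, 1945 to 3162 FPKM in the OE libraries and 228 to 259 FPKM in the WT libraries. OE libraries were thus far above the others, while the transcript was present in the mutant, so its level does not check the mutant label. The summed level of 6 identifiers taken from general knowledge as photosynthesis genes of the leaf was 3516 to 4771 FPKM in the mutant libraries, 2118 to 3913 FPKM in the OE libraries and 1814 to 3342 FPKM in the WT libraries, and each was at 20.2 FPKM or more in every library. One of them, Os11g0707000, was at 1978 to 2940 FPKM in the mutant, 111 to 227 FPKM in OE and 184 to 198 FPKM in WT. Without it the other 5 summed to 1537 to 1940 FPKM in the mutant, 2007 to 3739 FPKM in OE and 1616 to 3158 FPKM in WT. Os01g0600900 was at 290.3 to 623 FPKM in the mutant, 921 to 1951 FPKM in OE and 463 to 1794 FPKM in WT. The summed level of 2 identifiers taken as seed storage genes was 6.82 to 8.51, 7.65 to 10.5 and 7.28 to 10.7 FPKM in the mutant, OE and WT libraries. Their part in the results was not tested.

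The thresholds cut through a gradual range of levels, with no gap on either side. Among the 13401 genes of at least 5 FPKM in each OE and WT library, 26 had their highest mutant value under 1 FPKM, 38 had it from 1 to under 2 FPKM and 350 from 2 to under 5 FPKM. By contrast 12450 of them, or 92.9%, stayed at 5 FPKM or more in each mutant library. The members nearest to the mutant threshold were Os10g0490100, Os05g0312600 and Os01g0872100, with highest mutant values of 0.975, 0.968 and 0.902 FPKM. Just outside were Os09g0343200, Os01g0945300 and Os04g0387000, at 1.00, 1.05 and 1.07 FPKM. Those nearest to the other threshold were Os08g0455900, Os01g0973150 and Os03g0120400, with lowest OE or WT values of 5.30, 5.37 and 5.89 FPKM. Os01g0726801, Os09g0536700 and Os01g0221000 just missed it, at 4.93, 4.91 and 4.73 FPKM.

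**Figure D1:**
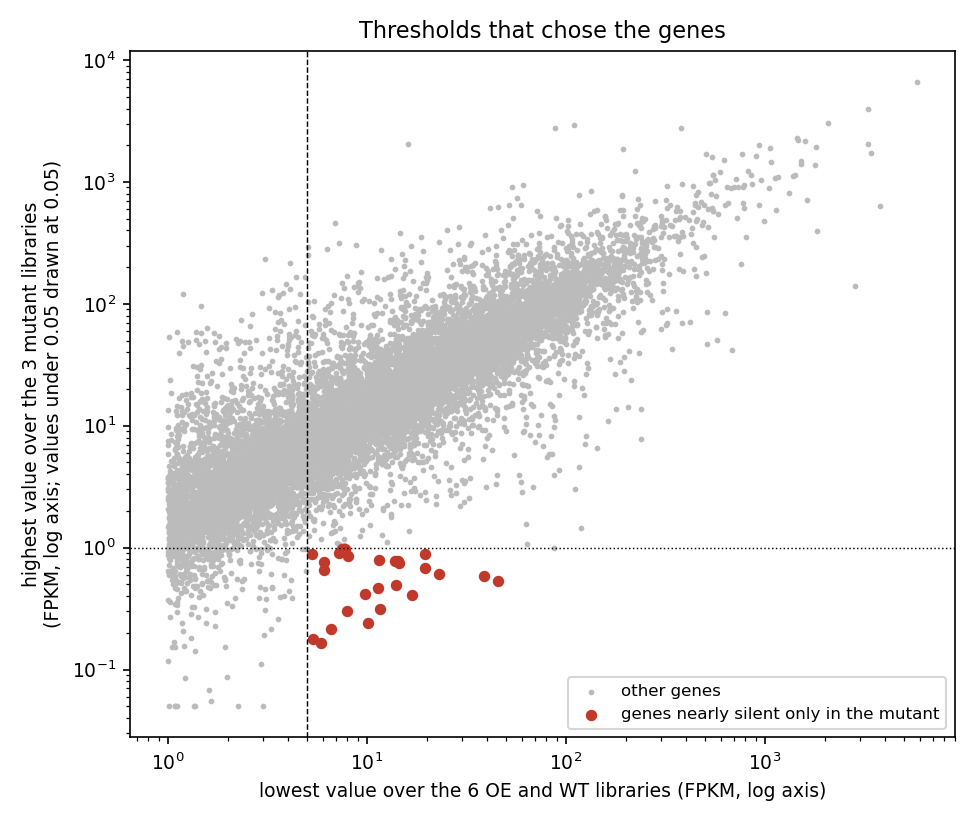
Each point is a gene, placed by its lowest level over the 6 OE and WT libraries (x axis, FPKM, log axis, genes of 1 FPKM or more) and its highest level over the 3 mutant libraries (y axis, FPKM, log axis). The 26 genes (red) lie right of the dashed line at 5 FPKM and below the dotted line at 1 FPKM, next to 38 genes between 1 and 2 FPKM.

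Outside the left-out stretch of chromosome 11 and the 2 single genes, no other genotype had genes of this kind. With the same thresholds, 0 genes were nearly silent only in OE and 0 only in WT. The opposite pattern, at least 5 FPKM in the 3 libraries of a genotype and under 1 FPKM in the other 6, was met by 16 genes in the mutant, 2 in OE and 0 in WT. The left-out genes were not searched for any of these patterns, so such genes among them are not counted here. These are counts past fixed levels, with no test.

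The mean level of the 26 genes over the mutant libraries was 0.0590 to 0.729 FPKM (median 0.414). Over the OE libraries it was 6.83 to 90.1 FPKM (median 16.2), and over the WT libraries 6.20 to 78.4 FPKM (median 18.2).  As a share, the mutant mean was 0.345% to 8.71% of the OE mean (median 1.93%) and 0.147% to 9.30% of the WT mean (median 1.68%). The median of their mean over OE and WT was 17.5 FPKM, against 23.0 FPKM for all genes of at least 5 FPKM in each of these libraries, and 10 of the 26 lay above that value.

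Few reads stood behind the mutant values. The 26 genes together drew 108, 167 and 202 reads in mutant replicates 1 to 3, against 9904, 6800 and 7731 reads in the OE libraries and 11110, 9020 and 6185 reads in the WT libraries. Per gene, the mutant total over its 3 libraries was 2 to 102 reads (median 13), and the OE and WT totals were 165 to 4516 and 113 to 3528 reads. Of the 78 mutant values 69 were above 0 and 9 were at 0, these in 7 genes, and 0 genes were at 0 in all 3 mutant libraries. Mutant replicate 1 held the lowest mutant value in 15 of the 26 genes, ties included, and the highest in 0.

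The gene of highest level was Os02g0674233 on chromosome 2. Its mutant libraries had 0.395, 0.536 and 0 FPKM, against 110.4, 79.5 and 80.4 FPKM in OE and 85.3, 104 and 45.7 FPKM in WT. It drew 7 reads over the mutant libraries, against 2152 over OE and 1895 over WT. The 0 of mutant replicate 3 allows up to 0.386 FPKM, taking 3 reads as the limit that a count of 0 leaves, which covers counting error only. OE and WT libraries of this gene overlapped in level, with WT replicate 3 the lowest of the 6.

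Os12g0493900 on chromosome 12 had 0.275, 0.233 and 0.581 FPKM in the mutant, 94.7, 48.4 and 53.1 FPKM in OE and 62.1, 52.0 and 38.7 FPKM in WT. With 24 reads over the mutant libraries, 4516 over OE and 3528 over WT, it was the gene with the most reads in both OE and WT. Os09g0458800 on chromosome 9, whose length of 318 bases was the shortest of the 26, was at 0.289, 0.884 and 0.565 FPKM in the mutant, 37.8, 31.8 and 19.6 FPKM in OE and 66.5, 45.3 and 24.3 FPKM in WT. Here the mutant values were 1, 3 and 2 reads, so the level in each mutant library rests on at most 3 reads. For both genes, too, replicate 3 was the lowest of the WT libraries.

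Os06g0534900 on chromosome 6 had 0.280, 0 and 0.411 FPKM in the mutant, against 42.5, 36.0 and 26.3 FPKM in OE and 26.2, 21.7 and 16.9 FPKM in WT. Each of its OE libraries was above each WT library. Os05g0312600 on chromosome 5 was at 0.660, 0.560 and 0.968 FPKM in the mutant, 12.4, 30.7 and 41.6 FPKM in OE and 20.1, 7.55 and 32.2 FPKM in WT, a wide and overlapping spread in both expressing genotypes. Os12g0256000 on chromosome 12 had 0.187, 0.238 and 0.687 FPKM in the mutant, against 28.4, 23.2 and 21.6 FPKM in OE and 23.2, 26.1 and 19.6 FPKM in WT. Os02g0249200 on chromosome 2 was at 0.582, 0.741 and 0.142 FPKM in the mutant, 29.3, 14.5 and 16.6 FPKM in OE and 27.4, 30.8 and 19.8 FPKM in WT. In these last 2 genes OE and WT overlapped.

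Among the genes of middle level, Os03g0275300 on chromosome 3 had 0.159, 0.377 and 0.465 FPKM in the mutant, 26.6, 21.9 and 15.6 FPKM in OE and 22.1, 22.0 and 11.4 FPKM in WT. Os07g0534500 on chromosome 7 was steadier in WT, with 0.0443, 0.496 and 0.390 FPKM in the mutant, 14.1, 18.4 and 16.2 FPKM in OE and 18.1, 18.3 and 17.2 FPKM in WT. Its 0.0443 FPKM in mutant replicate 1 was 1 read over a gene of 2076 bases. Os06g0298200 on chromosome 6, at 0.209, 0.637 and 0.775 FPKM in the mutant, 24.3, 14.3 and 22.6 FPKM in OE and 25.7, 16.7 and 15.7 FPKM in WT, again had overlapping OE and WT libraries.

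Os05g0478000 and Os03g0120400 were among the lowest in the mutant. Os05g0478000 on chromosome 5 had 0, 0.316 and 0 FPKM in the mutant, 3 reads in all, against 23.8, 16.6 and 15.3 FPKM in OE and 17.3, 17.2 and 11.7 FPKM in WT. Os03g0120400 on chromosome 3 had 0, 0.166 and 0.0796 FPKM in the mutant, also 3 reads, against 11.1, 6.97 and 5.89 FPKM in OE and 13.1, 8.83 and 6.69 FPKM in WT. A count of 0 in mutant replicate 1 allows up to 0.311 FPKM for Os05g0478000, of 888 bases, and 0.244 FPKM for Os03g0120400, of 1130 bases.

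By share of the OE mean, most was left in the mutant of Os08g0378000, Os01g0872100 and Os02g0269200, and by share of the WT mean of Os08g0455900. Os08g0378000 on chromosome 8, the longest at 4872 bases, had 0.491, 0.769 and 0.664 FPKM in the mutant, 7.91, 8.04 and 6.13 FPKM in OE and 11.8, 12.0 and 6.12 FPKM in WT. Its 102 mutant reads were the most of the 26 genes, and its mutant mean was 8.71% of the OE mean and 6.44% of the WT mean. Os02g0269200 on chromosome 2 was at 0.389, 0.660 and 0.380 FPKM in the mutant, 6.20, 6.13 and 8.15 FPKM in OE and 7.13, 8.05 and 6.26 FPKM in WT, so its mutant mean was 6.97% of the OE mean and 6.66% of the WT mean. Levels near 5 FPKM in OE and WT leave room for a smaller difference than high levels do.

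The members not yet given were of the same kind. Os05g0464300, Os09g0538400, Os10g0490100 and Os09g0343400 had mutant means of 0.531, 0.696, 0.549 and 0.142 FPKM. Their OE means were 15.4, 12.5, 10.4 and 11.8 FPKM and their WT means 20.4, 13.2, 14.1 and 10.9 FPKM, and OE and WT overlapped in each. Os05g0518000, Os08g0455900 and Os09g0489200 are given with the comparison of OE and WT.

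**Figure D2:**
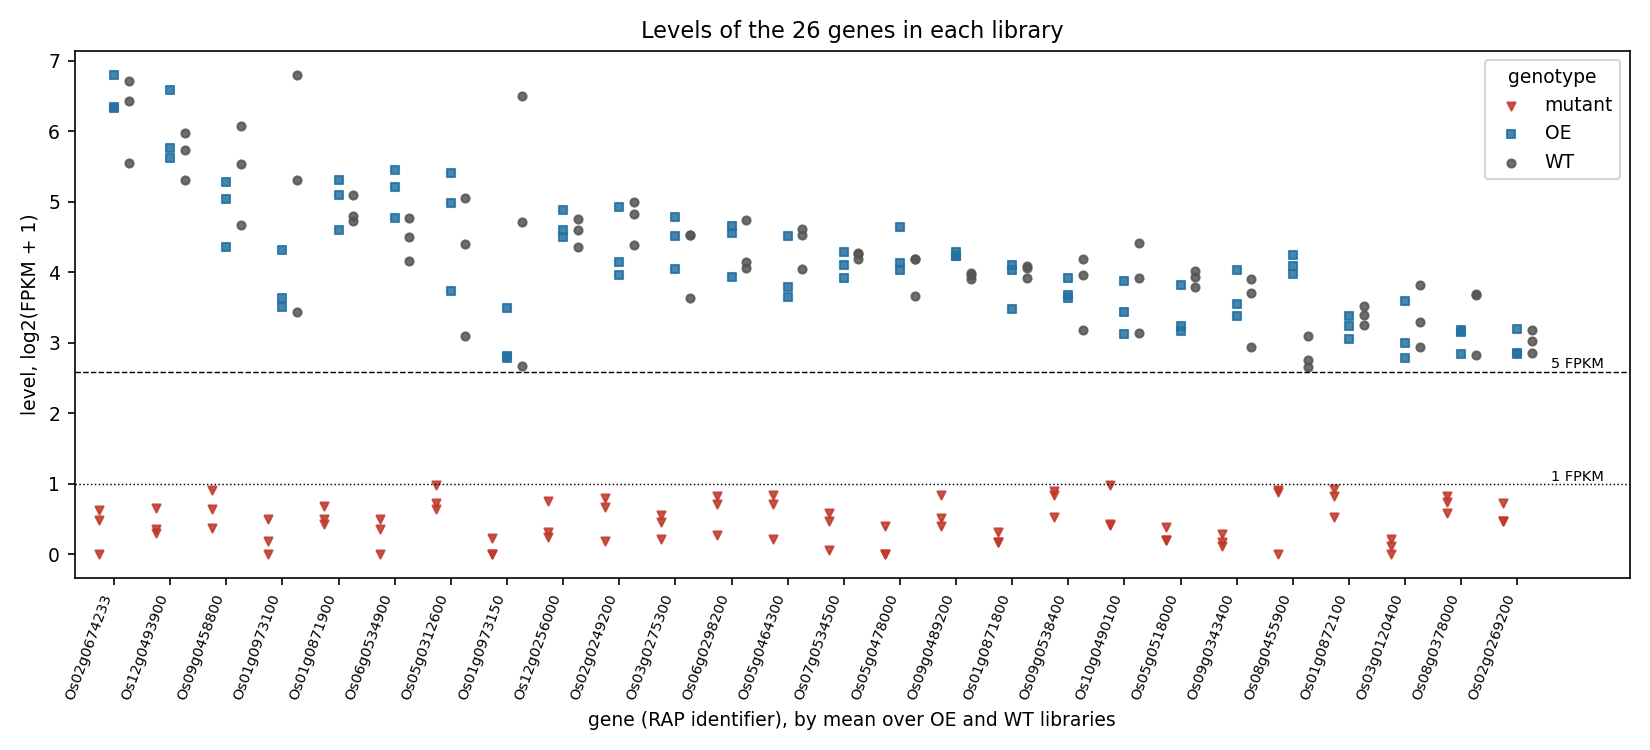
Level of the 26 genes as log2(FPKM + 1), with genes along the x axis by falling mean over OE and WT and a point for each library of the mutant (red triangles), OE (blue squares) and WT (grey circles). All mutant points lie under the dotted line at 1 FPKM and all OE and WT points above the dashed line at 5 FPKM, as the thresholds require; the WT points of Os01g0973100 and Os01g0973150 are the most spread.

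The 26 genes lay on 10 of the 12 chromosomes. Chromosome 1 held 5, chromosomes 5 and 9 held 4 each, chromosome 2 held 3, chromosomes 3, 6, 8 and 12 held 2 each, and chromosomes 7 and 10 held 1 each. Chromosomes 4 and 11 held 0, where an equal share of all genes of at least 5 FPKM in OE and WT would give 2.24 and 1.22. On chromosomes 1, 2, 5 and 9 that share would give 3.61, 3.18, 2.14 and 1.41. Of the 26, 5 lay within 5 table rows of another, in a group of 3 and a pair, both on chromosome 1, and the other 21 stood alone.

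Os01g0871800, Os01g0871900 and Os01g0872100 formed the group of 3. Os01g0871800 had 0.123, 0.125 and 0.240 FPKM in the mutant, 15.3, 10.2 and 16.3 FPKM in OE and 14.1, 15.7 and 16.1 FPKM in WT. Os01g0871900 had 0.413, 0.351 and 0.606 FPKM in the mutant, 38.6, 23.2 and 33.1 FPKM in OE and 25.4, 26.7 and 33.2 FPKM in WT. Os01g0872100 had 0.434, 0.774 and 0.902 FPKM in the mutant, 9.39, 7.27 and 8.43 FPKM in OE and 8.55, 9.51 and 10.4 FPKM in WT. All 3 were lowest among the OE libraries in replicate 2 and highest among the WT libraries in replicate 3.

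Between them lay Os01g0872000, which was too low in OE and WT to be counted among the 26. It had 0.154, 0.470 and 0.301 FPKM in the mutant, against 2.55, 2.22 and 1.76 FPKM in OE and 2.09, 2.42 and 1.64 FPKM in WT. It was no part of the thresholds but is named here after its values were seen. It was lower in the mutant than in WT (log2 difference -1.22, SE 0.17, limma adjusted p = 0.00040) and than in OE (-1.28, SE 0.17, adjusted p = 0.00029). Os01g0871500, 4 rows before the group, was at 42.3 ± 11.1 FPKM in the mutant, 105 ± 9.59 FPKM in OE and 96.6 ± 8.50 FPKM in WT (SD, n = 3 each), and was also lower in the mutant than in WT (-1.20, SE 0.16, adjusted p = 0.00034).

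Os01g0973100 and Os01g0973150, next to each other in the table, formed the pair. Os01g0973100 had 0, 0.413 and 0.132 FPKM in the mutant, 10.3, 11.4 and 19.0 FPKM in OE and 110.6, 38.4 and 9.79 FPKM in WT. Os01g0973150 had 0, 0.177 and 0 FPKM in the mutant, 6.0, 5.86 and 10.3 FPKM in OE and 89.7, 25.3 and 5.37 FPKM in WT. The order of the libraries within WT was the same in both, with replicate 1 the highest and replicate 3 below the lowest OE library. The labels do not say that strand was kept, so reads of overlapping or antisense genes cannot be told apart, and the values of both genes may share reads. Directly before the pair, Os01g0973000 had 0.425, 0.288 and 0.207 FPKM in the mutant, 1.82, 1.21 and 2.83 FPKM in OE and 2.89, 1.38 and 0.821 FPKM in WT. It was lower in the mutant than in WT (log2 difference -0.98, SE 0.29, limma adjusted p = 0.023) and than in OE (-1.14, SE 0.29, adjusted p = 0.011). Os01g0973300, 3 rows on, had 16.9 to 18.3 FPKM in the mutant, 14.6 to 16.8 FPKM in OE and 17.2 to 18.4 FPKM in WT.

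**Figure D3:**
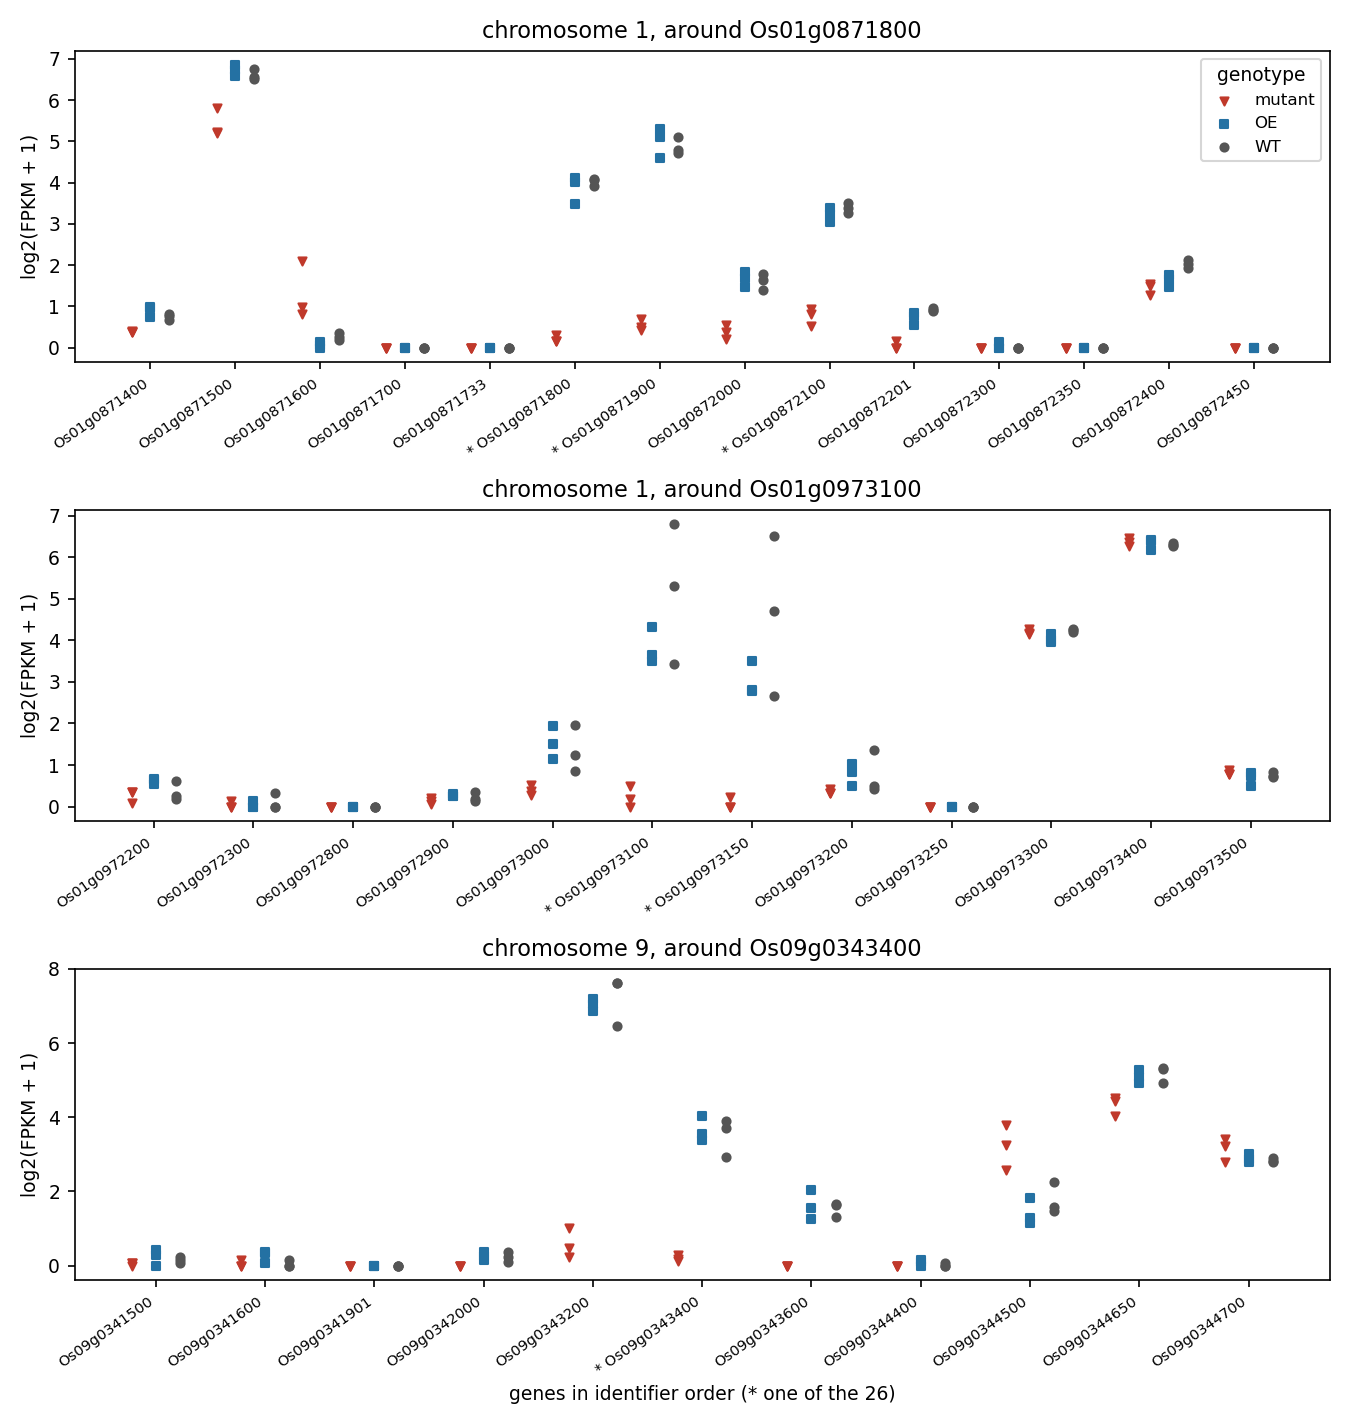
Levels as log2(FPKM + 1) of the genes within 5 rows of the group of 3 on chromosome 1, of the pair on chromosome 1 and of Os09g0343400 on chromosome 9, in identifier order, with a point per library (mutant red, OE blue, WT grey; an asterisk marks one of the 26). Around Os09g0343400 the genes on both sides, Os09g0343200 and Os09g0343600, are also near 0 in the mutant, while beside the pair Os01g0973000 is low in the mutant and Os01g0973300 and Os01g0973400 lie at like levels in all 3 genotypes.

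The neighbours of the 26 genes were chosen by position, as the 5 table rows on each side without the 26. Apart from leaving out the 26, their own levels played no part in the choice, and they were tested. The labels do not say that strand was kept, so a neighbour overlapping one of the 26 may share reads with it. Such a neighbour would not be independent of the values that chose the 26. Of 231 neighbours 89 were high enough to test, at a mean of at least 1 FPKM. In the mutant against WT 44 of the 89 were lower and 4 higher, or 49.4% and 4.49%, and 41 did not pass (limma, adjusted p under 0.05 over all genes). Of all 19850 genes tested in this comparison 22.4% were lower and 19.6% higher, 42% together. Against OE 46 of the 89 neighbours were lower in the mutant and 5 higher, or 51.7% and 5.62%, where 22.9% and 20.5% of all genes tested, 43.4% together, were called. Both comparisons share the mutant libraries. The median log2 difference of the neighbours was -0.39 against WT and -0.35 against OE, and that of all genes tested against WT was -0.01. No test was made of the neighbours as a set.

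The share of lower neighbours was highest beside the 26 genes. In the mutant against WT, 13 of 19 tested genes directly next to one of the 26 were lower (68.4%), and 31 of 70 at a distance of 2 to 5 rows (44.3%). Over the next 6 to 10 rows it was 32 of 101 (31.7%), and 18 of these were higher (17.8%). Among the neighbours of at least 5 FPKM in each OE and WT library, 23 of 51 were lower and 2 higher in the mutant against WT, where 23.9% and 19.5% of all genes above that level were called. Of these 51, 43 kept at least 5 FPKM in each mutant library (84.3%), beside 92.9% of all genes above that level. Of the 26 genes 24 had at least 1 tested neighbour that was lower in the mutant than in WT, with a median of 4 tested neighbours each. The same held for 68.0% of the 13372 genes of at least 5 FPKM in OE and WT that had a tested neighbour, with a median of 6. The exceptions were Os02g0269200, with 1 tested neighbour, and Os08g0378000, with 3. Around the 16 genes that were on only in the mutant, 17 of 91 tested neighbours were lower and 25 higher in the mutant against WT (18.7% and 27.5%).

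**Figure D4:**
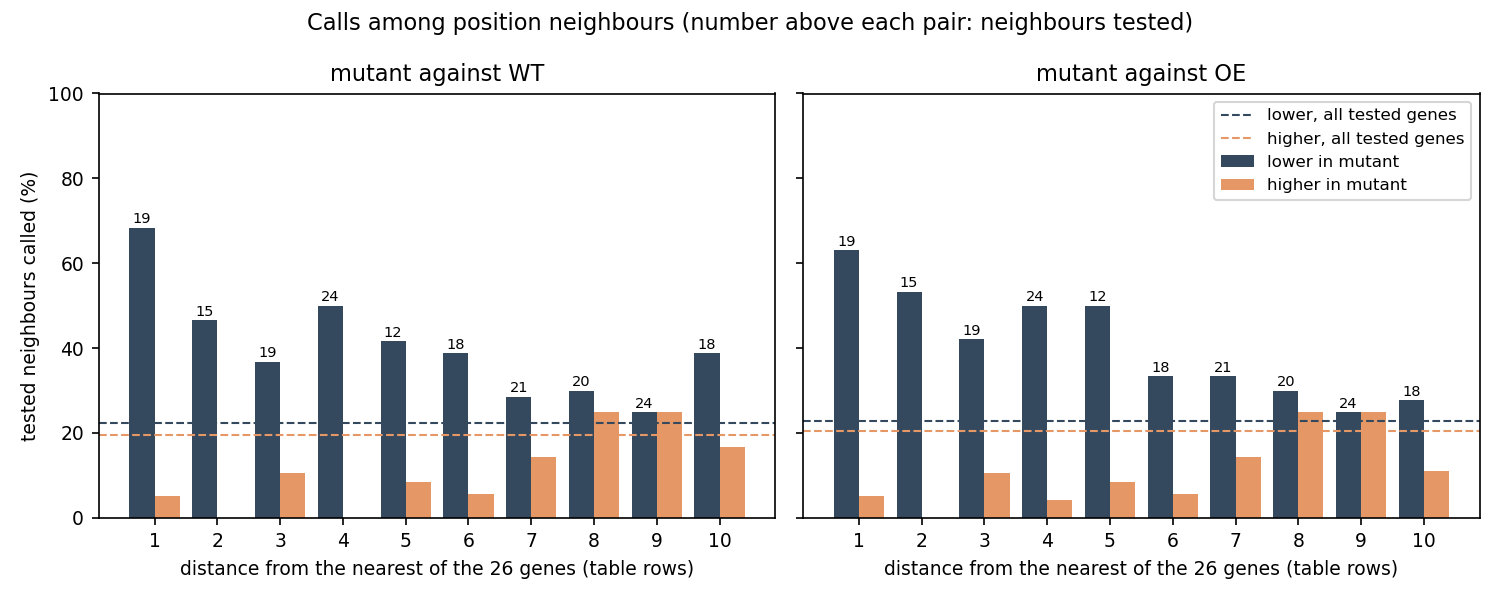
Share of tested neighbours called lower (dark bars) or higher (orange bars) in the mutant, against WT on the left and against OE on the right, by distance in table rows from the nearest of the 26 genes, with the number tested above each dark bar. Dashed lines give the share of all tested genes called lower and higher, 22.4% and 19.6% against WT. Directly next to the 26 genes 68.4% were lower against WT, and at each distance up to 7 rows fewer were higher than among all genes.

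The neighbour with the smallest p was Os09g0343200, next to Os09g0343400 on chromosome 9, which missed the threshold of the 26 by its value of 1.00 FPKM in mutant replicate 2. It had 0.182, 1.00 and 0.392 FPKM in the mutant, against 145, 131 and 115 FPKM in OE and 194, 196 and 87.6 FPKM in WT. Its log2 difference was -6.66 against WT (SE 0.30, limma adjusted p = 1.03e-06) and -6.46 against OE. Os09g0343400 itself had 0.0849, 0.216 and 0.124 FPKM in the mutant, 15.3, 10.7 and 9.38 FPKM in OE and 12.0, 14.0 and 6.65 FPKM in WT. On its other side Os09g0343600 had 0 reads in the mutant, against 70 reads over the OE libraries and 63 over the WT libraries, at least 22.4-fold lower than in OE and 19.9-fold lower than in WT, with a floor of 3 reads over the mutant libraries. Os09g0344500, 3 rows away, went the other way, with 8.77 ± 3.95 FPKM in the mutant, 1.72 ± 0.70 FPKM in OE and 2.51 ± 1.09 FPKM in WT (SD, n = 3 each), a log2 difference of 1.44 against WT (SE 0.33, adjusted p = 0.0063).

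The next smallest p-values among lower neighbours were those of Os07g0534700 and Os02g0248440. Os07g0534700, 2 rows from Os07g0534500, had 2.38, 4.56 and 5.36 FPKM in the mutant, 41.4, 45.5 and 56.7 FPKM in OE and 45.5, 44.4 and 38.5 FPKM in WT, a log2 difference of -3.15 against WT (SE 0.22, adjusted p = 8.04e-06) and -3.30 against OE. Os02g0248440, 4 rows from Os02g0249200, had 0 reads in the mutant, 26 over the OE libraries and 52 over the WT libraries, at least 8.32-fold lower than in OE and 16.4-fold lower than in WT. Of the neighbours that were higher in the mutant than in WT, Os09g0488700 had a log2 difference of 0.69 (SE 0.14, adjusted p = 0.0041) and Os05g0463900 of 0.41 (SE 0.13, adjusted p = 0.030). Without mutant replicate 1 or 3, or WT replicate 1 or 2, Os05g0463900 missed the threshold (adjusted p = 0.0996, 0.085, 0.097 and 0.10). Lower and higher genes thus stood side by side around Os09g0343400, Os09g0489200, Os05g0464300 and Os09g0538400.

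The thresholds used the OE and WT values too, and a gene that was under 5 FPKM in any OE or WT library could not be among the 26, so the comparison of OE and WT within them is a description and says nothing on how often such genes differ. The fit also took its spread in part from the mutant libraries, which were chosen to be near 0 in these genes. With limma 0 of the 26 passed at an adjusted p under 0.05, where 0.232% of all 19850 genes tested did (0.171% higher and 0.0605% lower in OE), and 0 passed with voom on the recovered reads, where 0.181% did. The left-out stretch of chromosome 11 and single genes, which could not be among the 26, were not removed from these shares. At an unadjusted p under 0.05 there were 4 of the 26, beside 10.1% of all genes. That count was 2 without OE replicate 2, OE replicate 3 or WT replicate 1, 7 without WT replicate 3 and 0 with a pseudocount of 0.1. The share of all genes at an unadjusted p under 0.05 was not counted in these settings. These counts therefore show only that the 4 depends on the setting. Of the 26, 12 had a log2 difference above 0 and 14 below, with a range of -1.60 to 1.27 and a median of -0.04. The median size of the difference was 0.28 in the 26 genes and 0.11 in all genes of at least 5 FPKM in OE and WT. Of the 89 tested neighbours 0 passed in OE against WT with limma or voom, and 11 had an unadjusted p under 0.05.

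The 4 genes below an unadjusted 0.05 were picked out after their values were seen. Os08g0455900 on chromosome 8 had 0, 0.882 and 0.847 FPKM in the mutant, 14.7, 16.0 and 18.0 FPKM in OE and 5.76, 5.30 and 7.54 FPKM in WT, and OE and WT did not overlap. Its log2 difference of OE and WT was 1.27 (SE 0.24, limma adjusted p = 0.11). It passed without mutant replicate 1 (adjusted p = 0.011), with a pseudocount of 5 (0.0056) and with only OE and WT in the fit (0.026), over a range of 0.0056 to 0.57 in all alternatives. Os06g0534900, given above, had a log2 difference of 0.66 (SE 0.21, adjusted p = 0.34).

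Os09g0489200 on chromosome 9 was the steadiest of the 4, with 0.430, 0.313 and 0.781 FPKM in the mutant, 17.8, 17.8 and 18.5 FPKM in OE and 14.9, 13.9 and 14.5 FPKM in WT. Its log2 difference was 0.30 (SE 0.12, adjusted p = 0.46). Os05g0518000 on chromosome 5 had 0.149, 0.303 and 0.145 FPKM in the mutant, 13.2, 8.39 and 7.94 FPKM in OE and 15.3, 14.2 and 12.8 FPKM in WT, a log2 difference of -0.51 (SE 0.18, adjusted p = 0.39). The largest differences by size were those of the pair on chromosome 1, -1.60 for Os01g0973150 (SE 0.75, adjusted p = 0.51) and -1.36 for Os01g0973100 (SE 0.67, adjusted p = 0.53), with OE libraries inside the range of the WT libraries. Without WT replicate 1 they were -0.67 and -0.55, smaller than the 1.23 of Os08g0455900, and without WT replicate 3 they were -2.58 and -2.23. OE and WT libraries did not overlap in 3 of the 26 genes, Os06g0534900, Os08g0455900 and Os09g0489200, all higher in OE, beside 16.4% of all genes tested.

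**Figure D5:**
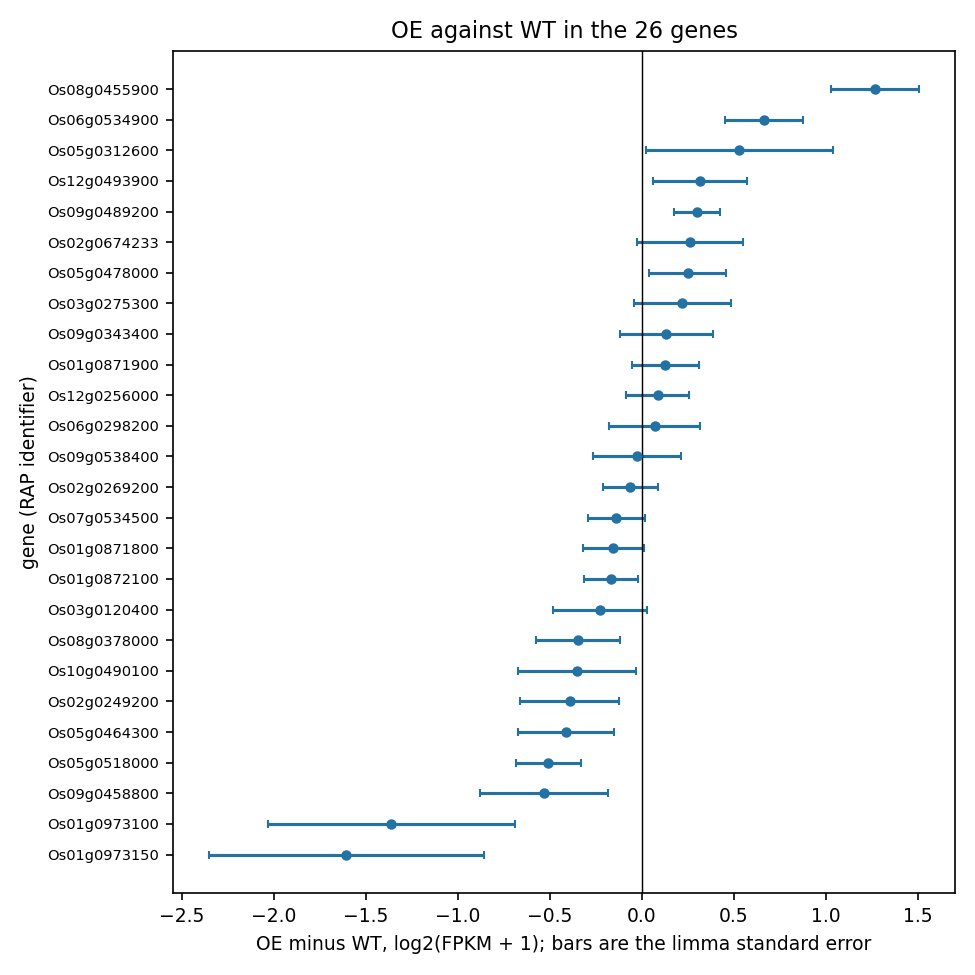
Difference of OE and WT on the log2(FPKM + 1) scale (x axis) for each of the 26 genes (y axis), with the limma standard error as bars. The points run from -1.60 for Os01g0973150 to 1.27 for Os08g0455900, and none passed at an adjusted p under 0.05.

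The 26 genes varied more between replicates than other expressed genes. Their median coefficient of variation was 25.4% among the OE libraries and 22.3% among the WT libraries, beside 10.1% and 7.94% for all genes of at least 5 FPKM in OE and WT. WT replicate 3 held the lowest WT value in 20 of the 26, beside 30.3% of all those genes. The exceptions were the group of 3 on chromosome 1, Os05g0312600, Os08g0455900 and Os09g0489200, and the first 5 of these were highest in WT replicate 3. OE replicate 2 was lowest of the OE libraries in 12 of the 26, beside 34.2% of all those genes. As RPM, reads scaled to the library total without gene length, the 26 genes summed to 9.94, 15.6 and 18.2 in the mutant libraries, 839, 629.9 and 677 in the OE libraries and 970.2, 769 and 550.1 in the WT libraries. The sum was lowest in replicate 1 of the mutant and in replicate 3 of WT. Genes that share a library in this way are not independent of each other.

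Gene length, as recovered from the FPKM steps, was 318 to 4872 bases, with a median of 1094.5 bases in the 26 genes, beside 1587 bases in all genes of at least 5 FPKM in OE and WT. Of the 26, 17 were shorter than that. At the threshold of 1 FPKM these lengths correspond to 3.46 to 53.0 reads in mutant replicate 1 (median 11.9). The fewest reads over the mutant libraries were the 2 of Os01g0973150, the 3 each of Os03g0120400 and Os05g0478000, the 4 of Os05g0518000 and the 5 of Os06g0534900.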

How the data were processed

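Leaf RNA of 3 genotypes was measured in 9 libraries. The authors deposited FPKM values per gene and library. Bowtie 0.12.2, Cuffdiff and the build IRGSP-1.0 are named per the submitters' processing notes, with no role given. The table holds 1 further per-sample column that matches no sample and was not used. Every one of the 30062 genes above 0 gave whole read numbers from its deposited FPKM (relative tolerance 1e-06), and these yielded reads, gene lengths and library totals. Replicates differed by more than counting noise (chi-square per gene 6.14 to 16.6). Precision at low levels is limited by these reads, and floors of 3 reads cover counting error only.

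Differences were fitted on the log2(FPKM + 1) scale over all 9 libraries (limma 3.58.1, R 4.3.3, eBayes with a trend), keeping 19850 genes whose mean reached 1 FPKM, two-sided, with Benjamini-Hochberg adjustment over all genes per comparison. The log2(FPKM + 1) scale understates changes of low genes. The script was tested on simulated data with a set spread and with changes in OE only, so the mutant comparisons were not covered. Changes were set only in genes with over 100 WT reads at the mean library total, so lower genes were not covered either. In OE against WT the script called 49% of these genes with a log2 change of 1 and 100% of those with 2. It also called 10 unchanged genes of 19565 genes tested, 200 of them changed. All 26 genes passed the filter, and the genes left out of the search were not removed from the fit. The rule named the 10 members of highest OE and WT mean, those in runs, 3 genes on each side of each threshold and 3 neighbours per direction of smallest p. The other members, Os11g0707000, Os01g0600900, Os01g0871500, Os01g0872000, Os01g0973000, Os01g0973300 and Os09g0343600 were added after their values were seen. The members, lists and tests were chosen with earlier results of these data known. Alternatives were other pseudocounts, filters, scalings, thresholds, distances, voom on the recovered reads, a replicate block and leaving out each library. Names were looked up in the RefSeq gene table of assembly ASM3414082v1, which holds 1 identifier of the expression table and none of the 26.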

Additional observations from a re-analysis of the deposited data

How the results depend on the processing

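The number of genes followed the thresholds: 54 with a minimum of 3 FPKM in OE and WT, 14 with 10 FPKM, 10 with a mutant maximum of 0.5 FPKM, 64 with 2 FPKM, and 5 with 10 and 0.5 FPKM together. It was 26 to 33 when single libraries were left out, which removes a condition and so could not lower the count. At 10 and 0.5 FPKM, and without the left-out genes, 5 genes were on only in the mutant and 1 only in OE. In OE against WT 1 of the 26 passed with a pseudocount of 5, with a fit of the 2 groups alone, and without mutant replicate 1. In these 3 settings 0.181%, 0.151% and 0.161% of all genes tested were higher in OE, and 0.0655%, 0.0403% and 0.0604% lower. Over all left-out libraries 0 to 1 of the 26 passed. The cause was not tested.

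Lower neighbours in the mutant numbered 36 to 44 against WT and 38 to 45 against OE when single libraries were left out, and higher ones 2 to 5 and 3 to 6. The 36 came without WT replicate 2 (40.9% of those tested), where 17.7% of all genes tested were lower. The 38 came without OE replicate 2 (42.7%), where 19.9% of all genes tested were lower. The fewest higher ones against WT came without WT replicate 1 or 2, where 15.1% and 15.8% of all genes tested were higher. Against OE they came without mutant replicate 2 or OE replicate 1, where 17.5% and 18.2% of all genes tested were higher. When a mean of 5 FPKM was required, which leaves fewer genes, 25 were lower and 2 higher of 55 against WT, and 26 and 2 against OE. Of all genes with that mean 22.7% were lower and 21.6% higher against WT, and 22.9% and 22.5% against OE. With 2 rows on each side 20 of 34 were lower and 1 higher in both comparisons, and with 10 rows 76 of 190 and 22. For these distances the shares of all genes tested stayed at 22.4% lower and 19.6% higher against WT, and 22.9% and 20.5% against OE. Of the 51 neighbours of at least 5 FPKM in OE and WT, an alternative chosen after seeing the data, 23 were lower and 2 higher against WT, and 26 and 2 against OE. Among all genes above that level 23.9% were lower and 19.5% higher against WT, and 24% and 20.5% against OE. Without the genes next to the 26, and with only the 21 that stood alone, both also added later, the counts moved by less than 1.5 times.

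No pairing of the libraries by replicate number was seen. Deviations of same-numbered libraries correlated at -0.07 to 0.21 and those of differently numbered ones at -0.23 to 0.22. In 6 of 18 checks a library correlated best with its own number. With 3 libraries per genotype these checks cannot exclude a pairing. With the replicate block 0 of the 26 passed in OE against WT, where 0.146% of all genes tested were higher and 0.0453% lower in OE. With this block 45 neighbours were lower and 6 higher in the mutant against WT, and 44 and 5 against OE. Of all genes tested 22.0% were then lower and 19.9% higher against WT, and 22.7% and 20.3% against OE. Depth limits the mutant values, which rest on 2 to 102 reads per gene.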
